A study of Mus musculus with 7 samples.

Results

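The genes described here encode the conjugation enzymes of the kidney: glutathione S-transferases (GST, with the membrane-bound MGST), UDP-glycosyltransferases (UGT) and cytosolic sulfotransferases (SULT). Members were the protein-coding genes of the deposited scaled expression table whose symbols belong to these families, which gave 47 genes among the 18797 of that table and the 48709 Ensembl genes of the raw count table. They comprised 23 soluble GST genes, 3 MGST genes, 14 UGT genes (6 UGT1, 6 UGT2, 2 UGT3) and 7 SULT genes. A further 21 gene symbols of these families were in the raw count table outside the rule. Of these, 12 had no read in any library and 20 had at most 5 reads in any library, and the exception was the pseudogene Gstm2-ps1.

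The study sequenced RNA from whole kidneys of male mice. Its groups were 3 wild-type animals (WT, replicates 1, 2 and 4) and 4 animals with a double knockout of Hs3st3a1 and Hs3st3b1 (DKO, replicates 1 to 4), whose products are 3-O-sulfotransferases, the last enzymes to modify heparan sulfate chains. The labels name no treatment, age, strain or deleted exon. Genotype is the only factor they name that differs between the groups, and differences they do not name cannot be told apart from it. Each library carries its own animal number. Libraries held 18330833 to 24259231 reads in genes. Values below are CPM, the read count of a gene divided by the TMM-scaled library size, listed in the order WT replicates 1, 2 and 4 and then DKO replicates 1 to 4.

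GSTs join glutathione to electrophiles, UGTs transfer a sugar, mostly glucuronic acid from UDP-glucuronate, to hormones, bilirubin and drugs, and SULTs transfer sulfate from the donor PAPS. All 3 reactions make lipophilic compounds more soluble, so that transporters can move them into urine or bile. In the kidney these enzymes are found mainly in the proximal tubule, and several of them are known in mice to differ between males and females.

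Transcripts of the deleted Hs3st3a1 amounted to 29, 13 and 12 reads in WT and 1, 0, 0 and 3 in DKO, and those of Hs3st3b1 to 56, 90 and 112 in WT and 33, 106, 65 and 108 in DKO. The labels do not give the deleted part of either gene, so reads elsewhere in Hs3st3b1 do not check the label. Xist had no reads and 4 Y-linked genes were detected in all 7 libraries, as for the labelled sex. Summed proximal tubule S1 and S2 markers were at 20560 to 22220 CPM in WT and 18200 to 21180 in DKO. Of these 10 markers, 3 were higher in DKO at an unadjusted edgeR p under 0.05 (9.86% of all genes tested were) and 0 were lower. Proximal tubule S3 markers summed to 382 to 1011 CPM in WT, highest in WT 2, and to 440 to 763 in DKO. Liver and adrenal gland are other tissues rich in these enzymes. The 6 hepatocyte markers summed to 292 to 567 CPM in WT and 189.8 to 493 in DKO, with Ttr the largest part, at 272 to 558 and 66.5 to 451 CPM, except in DKO 3, where Serpina1a was higher at 97.4 CPM. The defining hepatocyte marker Alb was at 4.20 to 5.45 CPM in WT and 4.20 to 15 in DKO, and Ahsg had 22 reads in DKO 3 and at most 1 in the other libraries. DKO 3, the library with the highest Ugt1a2, Ugt1a1 and Gsta1, was also the highest for Alb, Apoa1 (4.45 CPM), Serpina1a, Fgb and Ahsg, and the lowest for Ttr. The 5 adrenal markers summed to 1.43 to 3.31 CPM in WT and 2.08 to 4.09 in DKO, and Cyp21a1 had 0 reads throughout. Loop of Henle markers summed to 5994 to 9661 CPM in WT and 4229 to 6583 in DKO, with 4 of 5 lower at an unadjusted p under 0.05 (11.3% of all genes tested were). Podocyte markers summed to 84.4 to 96 CPM in WT and 99.7 to 128 in DKO, with 3 of 5 higher at that threshold (9.86% of all genes). The part of these markers in the results below was not tested. In whole-tissue RNA, fewer cells of a type and less RNA per cell cannot be told apart.

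Among members, the largest fold differences between DKO and WT kidneys were in 3 genes of the UGT1 cluster, and the abundant UGT2 gene Ugt2b38 differed in the opposite direction. In the UGT1 cluster, all 6 genes had higher mean values in DKO, also with any 1 library left out, with Ugt1a2, Ugt1a1 and Ugt1a10 between 7.83-fold and 28.8-fold higher. These folds rested in part on DKO 3, without which they were 8.19-fold, 3.93-fold and 4.99-fold. Ugt2b38, the most abundant member in WT, was at 0.360 of its WT level. The 5 alpha-class GST genes and the microsomal Mgst2 were also higher on average in DKO, and the neighbouring mu-class genes Gstm1 and Gstm2 differed in opposite directions. Most other members, the sulfotransferases included, differed by less than the spread between animals.

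No member passed the threshold of edgeR's quasi-likelihood test at a Benjamini-Hochberg adjusted p under 0.05, and none of the 15394 genes tested did (0% called). The low-count filter kept 42 of the 47 members. At an unadjusted p under 0.05, 8 of the 42 passed (19%), against 21.1% of all genes tested, so the share of members passing was near that of the transcriptome. In direction, 6 members were higher in DKO (14.3%, against 9.86% of all genes) and 2 were lower (4.76%, against 11.3%). Log2 fold changes were above 0 for 30 of 42 members (71.4%, against 53.2% of all genes), with a median of 0.21 over members and 0.04 over all genes. This count depended on single libraries: 21 of 41 were above 0 without DKO 1, 23 of 42 without WT 1 and 25 of 41 without DKO 3. All DKO libraries lay on one side of all WT libraries for 6 members (14.3%, against 17.4% of all genes), with DKO higher in 4 (9.52%, against 8.34%) and lower in 2 (4.76%, against 9.04%). With DESeq2, 2 members passed an adjusted p of 0.05 (4.76%, against 4.37% of all genes). They were Ugt1a2, higher in DKO (2.38%, against 1.44%), and Ugt2b38, lower (2.38%, against 2.92%). Genes and members to which DESeq2 gave no adjusted p counted as not passing in these shares. Limma-voom called 0 members and 0 genes. Without a low-count filter, edgeR called 1 of 47 members, Mgst2, against 0.241% of 27440 genes.

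**Figure D1:**
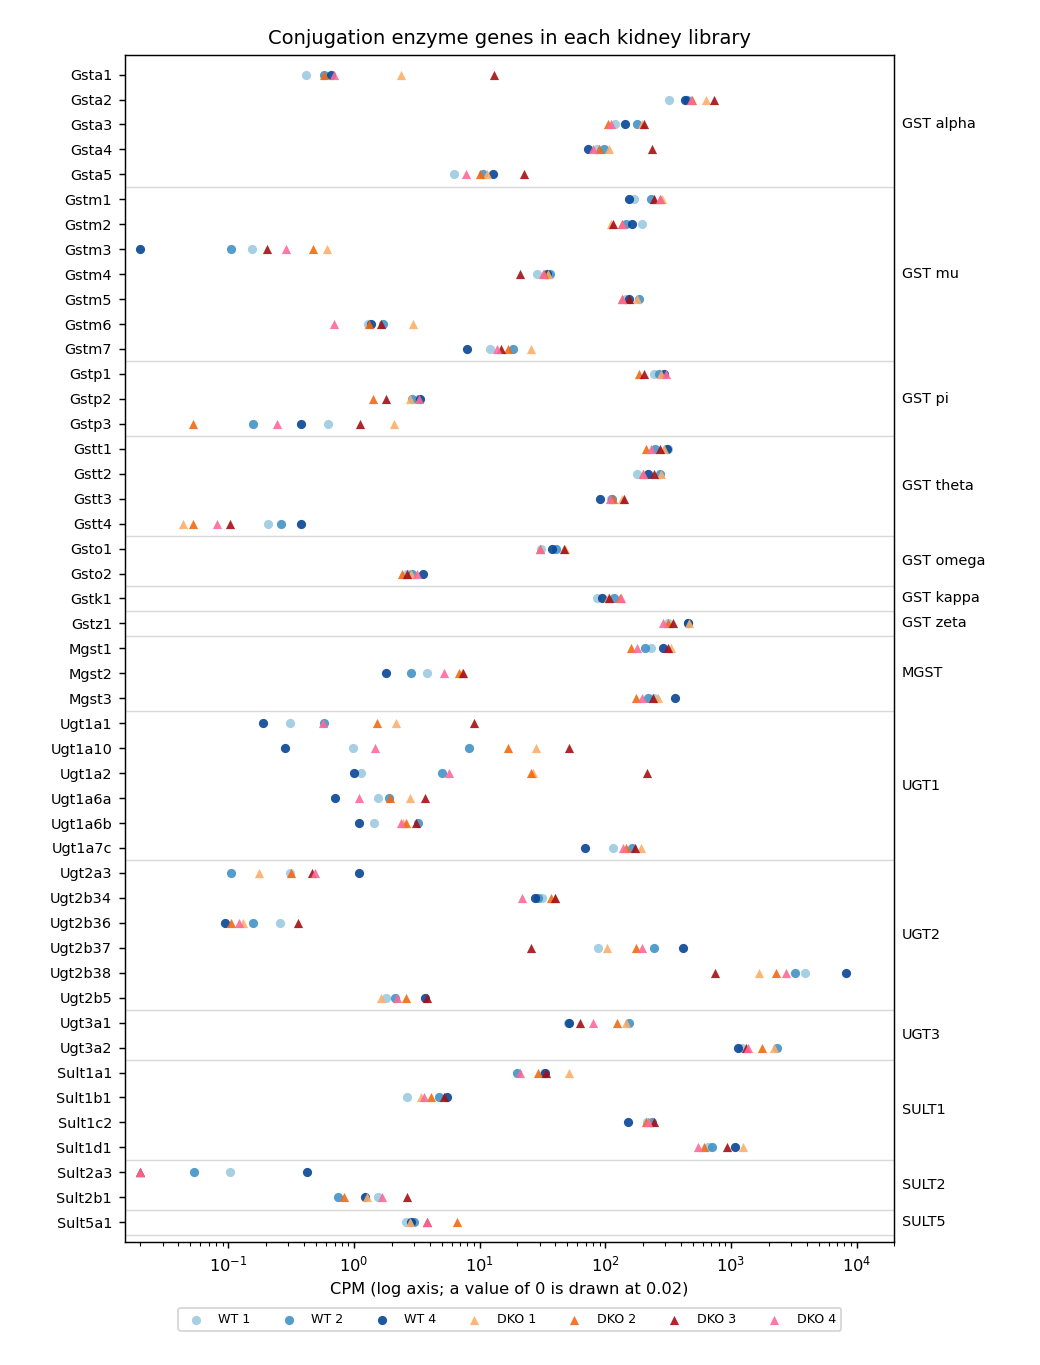
CPM of each of the 47 conjugation enzyme genes (rows, grouped by class) in each library, on a log axis; circles are WT and triangles DKO, and a value of 0 is drawn at 0.02. Ugt2b38 lies furthest to the right in WT, at 3261 to 8291 CPM, and Ugt1a2 spans the widest range, from 0.993 to 216 CPM.

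The 6 UGT1 genes lie on chromosome 1 (GRCm38, plus strand) and are in effect alternative starts of one transcription unit: each has its own first exon, which encodes the substrate-binding part of the enzyme, and all are spliced to the same later exons, which begin at position 88215044. Ugt1a10 starts furthest away, 159.7 kb before the shared exons, followed by Ugt1a7c (120.0 kb), Ugt1a6b (111.8 kb), Ugt1a6a (80.2 kb), Ugt1a2 (14.4 kb) and Ugt1a1 (3.09 kb). Each shares between 52.1% and 80.2% of its 50-base words with other genes, and no source used here says how reads in the shared exons were counted. Sequence of its own before the shared exons measured 809 nt in Ugt1a10, 900 nt in Ugt1a2 and 385 nt in Ugt1a1. In the annotation, Ugt1a7c alone reaches past the other genes' 3' ends, with 998 nt of its own there, and Ugt1a6a has 1920 nt of its own sequence after the start of the shared exons. The level given for each gene therefore depends on that counting. The level summed over the 6 genes does not depend on how shared reads were divided among them. It does depend on whether shared reads were dropped or given to genes outside the 6, such as Ugt1a5 and Ugt1a9.

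For the 3 UGT1 genes with the largest fold changes and for Ugt2b38, on which the results turn, the 250 bases before the start site are given, 5' to 3' on the gene's strand, from RefSeq on GRCm38.p6. RefSeq promoters matched 42 of the 47 members. Both strands were searched for the antioxidant response element core TGACNNNGC and the xenobiotic response element core GCGTG, and capitals would mark a match.
Ugt1a10, chr1:88055161-88055410, plus strand: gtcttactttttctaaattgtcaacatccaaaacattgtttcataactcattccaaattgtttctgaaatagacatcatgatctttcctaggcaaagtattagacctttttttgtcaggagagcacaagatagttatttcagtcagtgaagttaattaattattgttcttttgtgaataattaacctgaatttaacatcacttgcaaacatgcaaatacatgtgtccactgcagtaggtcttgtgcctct
Ugt1a2, chr1:88200361-88200610, plus strand: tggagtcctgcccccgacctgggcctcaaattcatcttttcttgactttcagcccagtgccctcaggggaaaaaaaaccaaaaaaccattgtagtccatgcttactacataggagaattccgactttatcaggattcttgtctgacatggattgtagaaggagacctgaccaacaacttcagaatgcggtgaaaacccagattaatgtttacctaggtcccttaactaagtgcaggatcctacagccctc
Ugt1a1, chr1:88211709-88211958, plus strand: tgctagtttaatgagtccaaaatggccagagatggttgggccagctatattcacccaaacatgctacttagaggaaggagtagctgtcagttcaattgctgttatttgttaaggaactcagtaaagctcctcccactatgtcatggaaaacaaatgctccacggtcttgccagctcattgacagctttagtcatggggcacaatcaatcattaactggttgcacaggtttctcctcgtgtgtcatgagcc
Ugt2b38, chr5:87424204-87424453, minus strand: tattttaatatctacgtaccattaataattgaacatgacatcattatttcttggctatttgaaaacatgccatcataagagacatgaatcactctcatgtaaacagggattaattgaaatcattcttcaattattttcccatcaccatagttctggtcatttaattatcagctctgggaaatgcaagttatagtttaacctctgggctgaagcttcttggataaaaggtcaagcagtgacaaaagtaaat

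Neither motif matched in these 4 windows. Among 32851 mouse promoters of this length, 28.2% held the xenobiotic and 10.2% the antioxidant core. Among the 53 promoters of members these shares were 18.9% and 7.55%. A match describes letters in the window and shows no binding. The absence of a match says nothing about sites outside the 250 bases, and control by these elements was not tested.

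Ugt1a2 (chromosome 1, 88200601 to 88218997, 5 exons) was at 1.14, 5.02 and 0.993 CPM in WT and at 26.7, 25.5, 216 and 5.67 CPM in DKO. Every DKO library lay above every WT library, but DKO 4 exceeded WT 2 by little and DKO 3 stood far above the other DKO libraries. Means were 2.39 ± 2.29 CPM in WT (SD, n = 3) and 68.4 ± 98.6 in DKO (SD, n = 4). This gave a log2 fold change of 4.85 (SE 1.62, edgeR adjusted p = 0.192). DESeq2 gave an adjusted p of 0.0218, and over all alternatives the adjusted p ranged from 0.0218 to 0.528. Without DKO 3 the log2 fold change was 3.03, an 8.19-fold difference in place of 28.8-fold, and without WT 2 it was 5.99.

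Ugt1a10, whose human counterpart is known mainly from the intestine, was at 0.985, 8.20 and 0.284 CPM in WT and at 28.2, 16.9, 51.6 and 1.47 CPM in DKO. Its groups overlapped, because DKO 4 was lower than WT 2. In the fit, the log2 fold change was 2.97 (SE 1.48), with an unadjusted edgeR p of 0.0921 and an adjusted p of 0.302. It was 5.27 without WT 2 and 2.32 without DKO 3. Ugt1a1, the main bilirubin glucuronosyltransferase of liver, was at 0.311, 0.582 and 0.189 CPM in WT and at 2.15, 1.52, 9.06 and 0.571 CPM in DKO. Again only DKO 4 fell within the WT range, and DKO 3 was the highest library. Its log2 fold change was 3.19 (SE 0.98, edgeR unadjusted p = 0.0104, adjusted p = 0.164), and 1.97 without DKO 3, a 3.93-fold difference in place of 9.13-fold. As given above, DKO 3 was also highest for 5 of 6 hepatocyte markers.

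Ugt1a7c was the most abundant UGT1 gene per length, at 27.5 ± 11.3 CPM per kb of exon in WT (SD, n = 3) and 38.4 ± 5.85 in DKO (SD, n = 4). In CPM it was at 116, 164 and 68.4 in WT and 192, 145, 172 and 139 in DKO. Only WT 2 lay within the DKO range, and the log2 fold change was 0.48 (SE 0.26, edgeR adjusted p = 0.302). Ugt1a6a and Ugt1a6b, whose relatives in other species conjugate small phenols, had log2 fold changes of 0.77 (SE 0.46) and 0.46 (SE 0.37), with overlapping groups.

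Summed over its 6 genes, the UGT1 cluster was at 121, 182 and 71.7 CPM in WT and at 254, 193, 455 and 149.9 CPM in DKO. WT 2 lay above DKO 4, and the other DKO libraries were above all WT libraries. Its log2 fold change was 1.07 (SE 0.42, edgeR unadjusted p = 0.0314, adjusted p = 0.204). The genes differed among themselves, from a log2 fold change of 0.46 for Ugt1a6b to 4.85 for Ugt1a2, with a median of 1.87. The 3 genes with the largest fold changes lie at the ends of the cluster: Ugt1a10 is its first start, and Ugt1a2 and Ugt1a1 are the neighbouring starts nearest the shared exons.

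**Figure D2:**
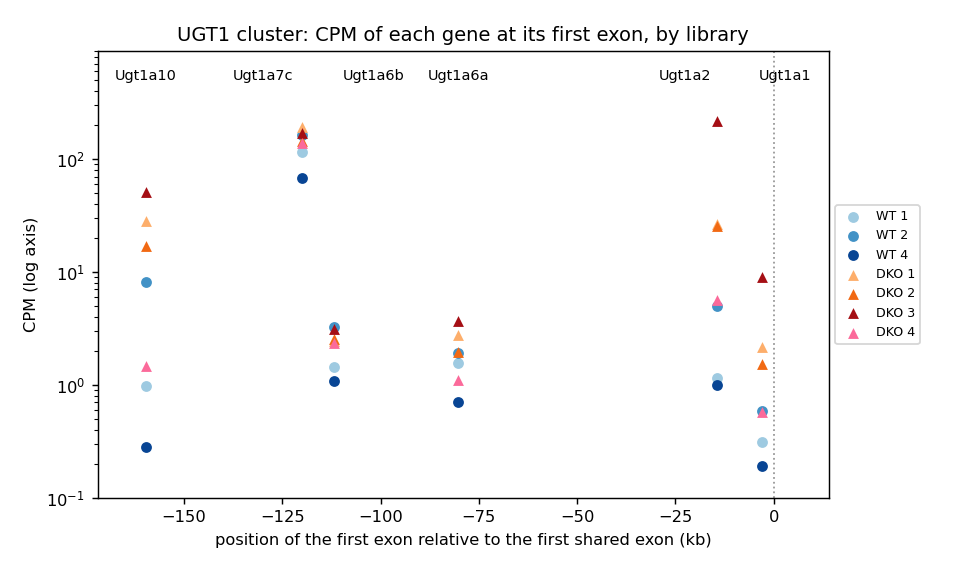
CPM of each UGT1 gene (log axis) against the position of its first exon relative to the first shared exon (dotted line, 0 kb); circles are WT and triangles DKO libraries. Ugt1a7c, 120.0 kb before the shared exons, was abundant in all libraries, whereas Ugt1a2, Ugt1a1 and Ugt1a10 were low in WT and spread widely among DKO libraries.

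Ugt2b38 (chromosome 5, 87409942 to 87424203, minus strand, 6 exons), a kidney UGT2B enzyme, was the most abundant member per length in WT, at 2726 ± 1446 CPM per kb of exon (SD, n = 3), against 983 ± 452 in DKO (SD, n = 4). It was at 3914, 3261 and 8291 CPM in WT and at 1676, 2264, 753 and 2739 CPM in DKO. All DKO libraries were below all WT libraries, with DKO 3 the lowest and WT 4 the highest. The log2 fold change was -1.47 (SE 0.45, edgeR unadjusted p = 0.00892, adjusted p = 0.163). DESeq2 gave an adjusted p of 0.0218, in a range over all alternatives of 0.0218 to 0.497. Without WT 4 the log2 fold change was -0.95, with an unadjusted p of 0.0577.

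Because of its abundance, Ugt2b38 set the total of the families. It held 42.5%, 31.2% and 56.8% of all member reads in WT and 17.2%, 27.4%, 9.94% and 32.9% in DKO. The summed level of the 47 members was 11421 ± 2821 CPM in WT (SD, n = 3) and 8479 ± 925 in DKO (SD, n = 4). Without Ugt2b38 the sums were 6266 ± 954 and 6621 ± 1112 CPM, a difference smaller than the spread between animals. Of its 50-base words, 34.2% are shared with Ugt2b5, which lies in the same chromosome 5 cluster and was at 2.54 ± 1.01 CPM in WT and 2.56 ± 0.938 in DKO.

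Ugt2b37, another gene of this cluster, was at 88.0, 244 and 418 CPM in WT and at 104, 176, 25.8 and 195 CPM in DKO. WT 1 lay within the DKO range, and DKO 3 was lowest of all libraries, as for Ugt2b38. For Ugt2b37 the log2 fold change was -1.0 (SE 0.74, edgeR adjusted p = 0.465), and -0.41 without WT 4. Ugt2b34 had overlapping groups, at 29.4 ± 1.88 CPM in WT and 34.5 ± 8.51 in DKO. Ugt2a3 and Ugt2b36 had at most 23 and 7 reads in a library and were not tested.

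The UGT3 enzymes use other sugar donors than UDP-glucuronate. Ugt3a2, the second most abundant member per length, was at 1233, 2309 and 1134 CPM in WT and at 2217, 1772, 1325 and 1378 CPM in DKO. Ugt3a1, beside it on chromosome 15, was at 50.9, 153 and 51.6 CPM in WT and at 147, 124, 63.5 and 80.1 CPM in DKO. In both genes WT 2 was the highest library and the groups overlapped. Log2 fold changes were 0.10 (SE 0.28) and 0.28 (SE 0.44), with edgeR adjusted p-values of 0.857 and 0.739. Without WT 2 the log2 fold change of Ugt3a1 was 1.0 (unadjusted p = 0.0117).

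Among GST genes, the alpha class acts on lipid peroxidation products and steroids. Its 5 genes all had log2 fold changes above 0, from 0.07 for Gsta3 to 2.89 for Gsta1. Of the 5, 2 had an unadjusted p under 0.05, against 9.86% of all genes higher at that threshold. Without DKO 3, 3 of the 5 remained above 0. Gsta2 (chromosome 9, 78331018 to 78355788, minus strand), the most abundant of them per length, was at 321, 445 and 434 CPM in WT and at 633, 491, 732 and 485 CPM in DKO. Its groups did not overlap, DKO 4 being the nearest to WT. The means of 399.8 ± 68.6 CPM (SD, n = 3) and 585 ± 119 CPM (SD, n = 4) gave a log2 fold change of 0.55 (SE 0.21, edgeR unadjusted p = 0.0226, adjusted p = 0.187).

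Gsta1 (chromosome 9, 78230656 to 78242684, plus strand) was scarce, at 0.415, 0.582 and 0.662 CPM in WT and at 2.37, 0.577, 13 and 0.693 CPM in DKO. DKO 3 held most of the signal and DKO 2 lay within the WT range. Its log2 fold change was 2.89 (SE 1.23, edgeR unadjusted p = 0.0488, adjusted p = 0.236), and 1.14 without DKO 3. Of the 50-base words of Gsta1, 90.5% occur in other genes, above all in the gene model Gm3776 and in Gsta2, so its reads are uncertain. Summed with Gsta2, it gave a log2 fold change of 0.56 (SE 0.21).

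Gsta4, which has high activity toward 4-hydroxynonenal, was at 85.3, 97.2 and 72.2 CPM in WT and at 108, 88.6, 237 and 79.2 CPM in DKO. DKO 3 was again the highest library, and the other DKO libraries were near or within the WT range. The log2 fold change was 0.59 (SE 0.36, edgeR adjusted p = 0.358). Gsta3 and Gsta5 overlapped between groups, with log2 fold changes of 0.07 (SE 0.26) and 0.39 (SE 0.37).

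The mu class, whose genes lie together on chromosome 3, was divided. Gstm1 (108012255 to 108017973, minus strand) was at 168, 232 and 155 CPM in WT and at 284, 271, 245 and 272 CPM in DKO. All DKO libraries were above all WT libraries and lay close to one another. Its log2 fold change was 0.53 (SE 0.18, edgeR unadjusted p = 0.0121, adjusted p = 0.164), from means of 185 ± 41.4 (SD, n = 3) and 268 ± 16.6 CPM (SD, n = 4). Gstm2 (107981702 to 107986453, minus strand) was at 196, 147 and 162 CPM in WT and at 111, 136, 115 and 135 CPM in DKO, which placed all DKO libraries below all WT libraries. Its log2 fold change was -0.44 (SE 0.16, edgeR unadjusted p = 0.020, adjusted p = 0.180). The pseudogene Gstm2-ps1, which shares 14.1% of the 50-base words of Gstm1, had 91, 129 and 63 reads in WT and 183, 192, 110 and 177 in DKO.

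Of the other mu genes, Gstm5 was the most abundant per length, at 146, 184 and 155 CPM in WT and at 178, 137, 153 and 137 CPM in DKO, with overlapping groups. Gstm4, Gstm6 and Gstm7 also overlapped, with log2 fold changes between -0.14 and 0.47. Gstm3 was too low to be tested, with 3, 2 and 0 reads in WT and 14, 9, 4 and 7 in DKO. Together the 7 mu genes were at 563 ± 52.6 CPM in WT and 593 ± 34.8 in DKO, a difference within the spread.

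MGST enzymes sit in membranes, and Mgst2 can also make leukotriene C4 from glutathione. Mgst2 (chromosome 3, 51660360 to 51682677, plus strand) was at 3.84, 2.86 and 1.80 CPM in WT and at 7.25, 6.82, 7.37 and 5.18 CPM in DKO. Its groups did not overlap and the DKO libraries were close together, unlike those of Ugt1a2. The means were 2.83 ± 1.02 CPM (SD, n = 3) and 6.66 ± 1.01 CPM (SD, n = 4), a log2 fold change of 1.23 (SE 0.27). Mgst2 had the smallest p of the members (edgeR unadjusted p = 0.000898, adjusted p = 0.163). Its unadjusted p stayed between 0.000475 and 0.00362 when any 1 library was left out, and its adjusted p over all alternatives ranged from 0.0466 without a low-count filter to 0.494.

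Mgst1 was at 231, 205 and 285 CPM in WT and at 336, 161, 316 and 178 CPM in DKO. Mgst3 was at 245, 218 and 356 CPM in WT and at 264, 174, 241 and 196 CPM in DKO. Both genes had overlapping groups, with log2 fold changes of 0.04 (SE 0.27) and -0.32 (SE 0.21).

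In the remaining GST classes, no gene that was tested had an unadjusted p under 0.05. Gstp1, the pi-class enzyme, was at 244, 269 and 294 CPM in WT and at 275, 184, 205 and 303 CPM in DKO, and its near copy Gstp2 was at 3.16 ± 0.229 CPM in WT and 2.32 ± 0.868 in DKO. Gstt1, the most abundant theta gene per length, was at 315, 248 and 312 CPM in WT and at 295, 211, 273 and 229 CPM in DKO. In both genes the lowest value was from DKO 2 and the groups overlapped. Gstt2 was at 223 ± 45.9 CPM in WT and 229.9 ± 39.1 in DKO.

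Gstz1, which acts as maleylacetoacetate isomerase in tyrosine breakdown, was at 314, 459.5 and 452 CPM in WT and at 463, 316, 347 and 289 CPM in DKO. Gstk1, a mitochondrial and peroxisomal enzyme, was at 86.4, 116 and 94.3 CPM in WT and at 105, 130.4, 107 and 134 CPM in DKO. Gsto1 and Gsto2, which can reduce dehydroascorbate, were at 36.3 ± 5.12 and 3.03 ± 0.463 CPM in WT and at 38.8 ± 9.76 and 2.78 ± 0.324 CPM in DKO. The groups of these 4 genes overlapped. Gstp3 had a log2 fold change of 1.17 (SE 0.93), with at most 2.07 CPM in any library. Gstt4 was not tested, with 4, 5 and 8 reads in WT and 1, 1, 2 and 2 in DKO.

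None of the 6 sulfotransferase genes tested had an unadjusted p under 0.05. Sult1d1, the most abundant of them per length, was at 658, 710.0 and 1075 CPM in WT and at 1253, 611, 926 and 544 CPM in DKO. Sult1c2 was at 216, 237 and 151 CPM in WT and at 218, 212, 244 and 217 CPM in DKO. Both overlapped between groups, with log2 fold changes of 0.03 (SE 0.30) and 0.15 (SE 0.18). Sult5a1 had the largest log2 fold change of the family, 0.59 (SE 0.30, edgeR adjusted p = 0.282), at 2.59, 3.01 and 2.84 CPM in WT and 2.77, 6.56, 3.84 and 3.79 CPM in DKO. DKO 1 lay within its WT range. Sult2b1, which sulfates cholesterol, was at 1.17 ± 0.410 CPM in WT and 1.61 ± 0.778 in DKO. Sult2a3, of the class that sulfates steroids and bile acids, had 2, 1 and 9 reads in WT and 0 in each DKO library. It did not pass the low-count filter and was not tested. Because a count of 0 allows up to 3 reads, no fold is given. The 7 SULT genes summed to 1053 ± 190.0 CPM in WT (SD, n = 3) and 1100.0 ± 341 in DKO (SD, n = 4).

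**Figure D3:**
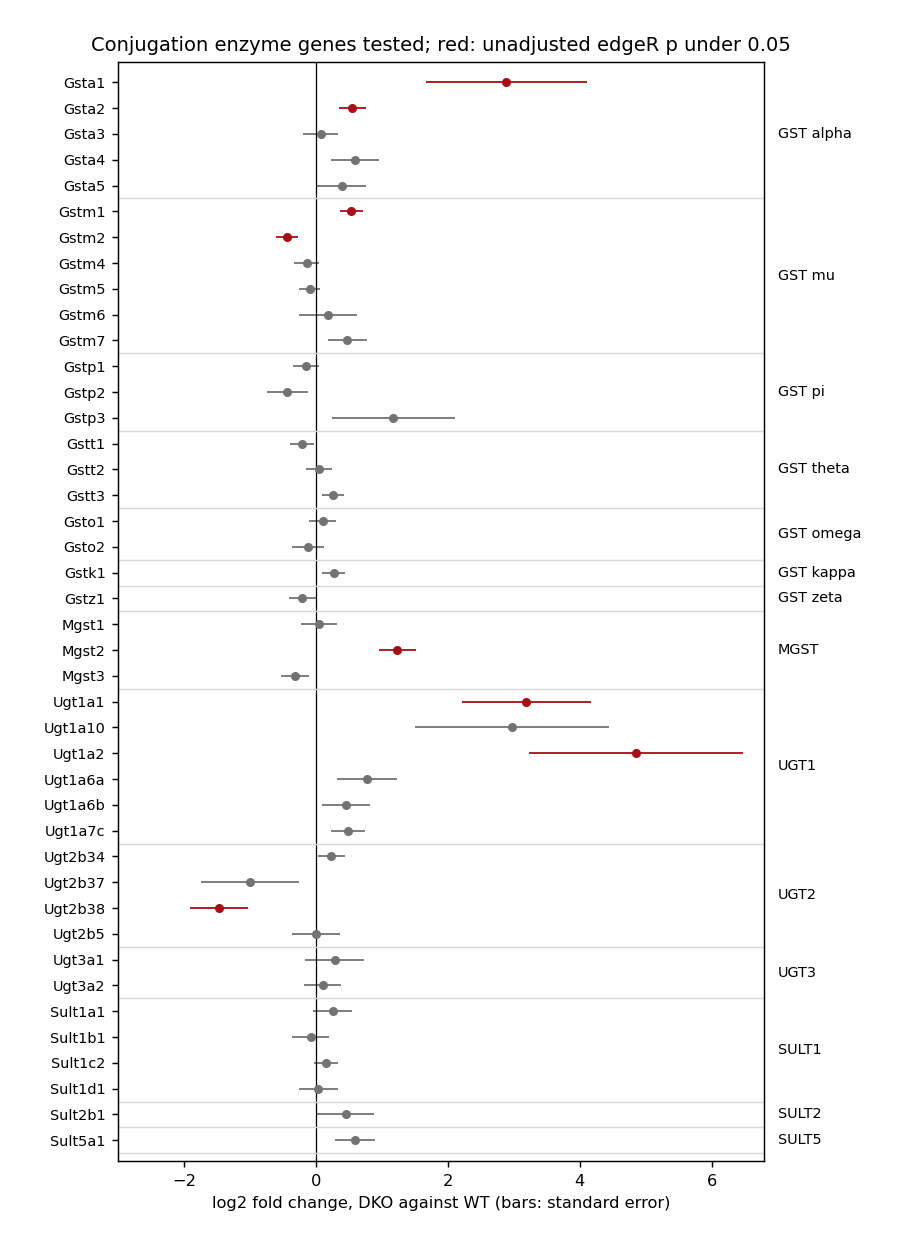
Log2 fold change of DKO against WT from edgeR for the 42 members tested (rows, grouped by class), with bars of 1 standard error; red marks an unadjusted p under 0.05. The 8 red genes are Ugt1a2, Ugt1a1, Gsta1, Mgst2, Gsta2 and Gstm1 to the right of 0, and Gstm2 and Ugt2b38 to the left.

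Individual libraries contributed unevenly. DKO 3 was the highest of the 7 libraries for 15 of the 42 members (35.7%, against 18.6% of all genes tested) and DKO 1 for 11 (26.2%, against 9.96%). DKO 2 was the highest for 1 (2.38%, against 16.9%) and DKO 4 for 2 (4.76%, against 9.82%). Among WT libraries, replicate 1 was the highest for 2 members (4.76%, against 9.91%), replicate 2 for 5 (11.9%, against 8.53%) and replicate 4 for 6 (14.3%, against 26.4%). For Ugt1a2, Ugt1a10 and Ugt1a1, WT 2 was the highest WT library and DKO 4 the lowest DKO library. The number of members without overlap was 6 of 42 with all libraries. It was 15 without WT 2 (35.7%, against 32.7% of all genes) and 12 without DKO 4 (28.6%, against 24.1%). Members higher at an unadjusted p under 0.05 numbered 11 of 44 without WT 2 (25%, against 10.3% of all genes). They numbered 3 of 44 without WT 1 (6.82%, against 7.54%) and 3 of 42 without WT 4 (7.14%, against 5.63%).

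The same libraries stood apart in genes known to differ between male and female mouse kidneys. Prlr, the prolactin receptor, was at 5.65, 40.2 and 6.24 CPM in WT and at 80.8, 78.4, 89.4 and 19.0 CPM in DKO. Cyp4a14, a fatty acid hydroxylase, was at 32.0, 220.0 and 22.3 CPM in WT and at 871, 327, 1333 and 44.6 CPM in DKO. Slc7a12, an amino acid transporter, was at 0.311, 6.71 and 0.756 CPM in WT and at 18, 13.3, 18.3 and 3.79 CPM in DKO. In all 3 genes WT 2 was above DKO 4 and the other DKO libraries were above all WT libraries, as for Ugt1a10. These genes and Slco1a1 were named after their values were seen.

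Kap, an androgen-regulated kidney protein, was at 2591, 2337 and 5417 CPM in WT and at 912, 894, 273 and 2038 CPM in DKO. Odc1, which makes polyamines, was at 56.9, 52.2 and 98.4 CPM in WT and at 31.3, 24.9, 24.9 and 43.4 CPM in DKO. Slco1a1, an organic anion transporter, was at 160.3, 176 and 182 CPM in WT and at 27.0, 27.2, 1.23 and 117 CPM in DKO. These 3 genes were lower in DKO without overlap between groups, as were 9.04% of all genes. In each of the 3, DKO 4 was the DKO library nearest to WT, as it was for Ugt2b38. Log2 fold changes were -1.74 (SE 0.60) for Kap, -1.15 (SE 0.26) for Odc1 and -2.0 (SE 1.16) for Slco1a1, with edgeR adjusted p-values of 0.180, 0.163 and 0.361. With 1 library left out, Slco1a1 ranged from -3.22 to -1.59. Of the whole lists, 6 of 8 androgen-responsive genes were lower and 2 were higher (median log2 fold change -0.46). Without DKO 3, 4 of 8 were above 0. Lower at an unadjusted p under 0.05 were 2 of the 8, against 11.3% of all genes. Of 4 genes higher in females, 3 were higher in DKO (median 2.16, 0 at that threshold), and the exception, Acsm2, was at 1574 ± 220.2 CPM in WT and 1272 ± 428 in DKO. The part of hormone-linked expression in the differences of the conjugation genes was not tested.

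**Figure D4:**
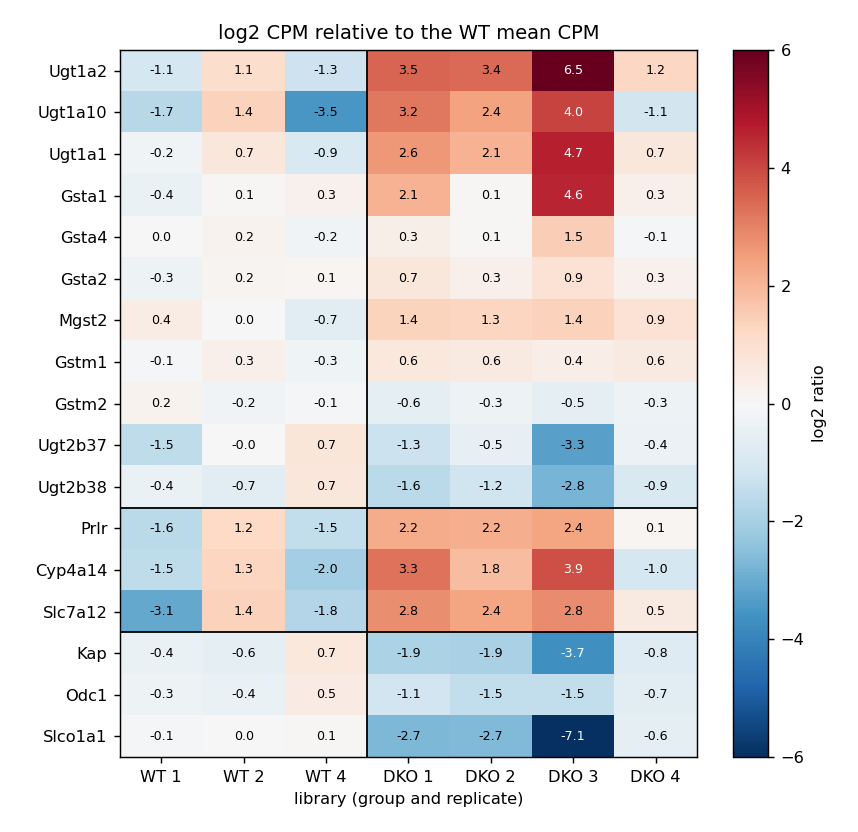
Log2 ratio of each library's CPM to the WT mean CPM for 11 members (top) and for genes higher in female (middle) and androgen-responsive (bottom) mouse kidneys, named after their values were seen; red is above and blue below the WT mean. The members shown are the 8 with an unadjusted edgeR p under 0.05 and Ugt1a10, Gsta4 and Ugt2b37, and do not stand for all members. DKO 3 has the extreme values of most rows shown, and was the highest library for 15 of the 42 members tested. WT 2 and DKO 4 have like values for Ugt1a2, at 1.07 and 1.25.

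Genes that supply, export or control conjugation were read from lists chosen with earlier results of these data known. Their counts beside those of all genes are therefore descriptions. The list of efflux pumps also holds some, such as the P-glycoproteins, that are not known mainly for conjugates. Of these pumps, 5 of 9 were higher in DKO at an unadjusted p under 0.05, against 9.86% of all genes (median log2 fold change 0.57, against 0.04). Either direction at that threshold held for 21.1% of all genes. Log2 fold changes were above 0 for 8 of 9, and for 6 of 9 after trends with exon length and GC content were removed. Abcc4 (MRP4), a pump for glucuronide, sulfate and glutathione conjugates, was at 16.8, 17.5 and 10.9 CPM in WT and at 40.1, 40.3, 46.1 and 23.0 CPM in DKO. All DKO libraries were above all WT libraries, with DKO 4 nearest. Its log2 fold change was 1.31 (SE 0.26, edgeR unadjusted p = 0.000352, adjusted p = 0.163). DESeq2 gave an adjusted p of 0.00196, the lowest of a range over alternatives that reached 0.494.

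Abcc3, a related pump of the basolateral membrane, was at 1.49 ± 0.293 CPM in WT and 3.59 ± 1.5 in DKO (log2 fold change 1.26, SE 0.39). Abcc2, its apical counterpart, was at 58.7 ± 6.82 and 86.1 ± 17.0 CPM (0.55, SE 0.18). Abcb1a, a P-glycoprotein gene, was at 1.68 ± 0.803 and 4.35 ± 2.29 CPM (1.37, SE 0.48). In each of the 3 genes, DKO 4 lay within the WT range. The fifth was Abcc5, at 155 ± 22.6 and 230.2 ± 58.2 CPM (0.57, SE 0.22), which was named after its values were seen. Adjusted edgeR p-values of these 4 genes were between 0.163 and 0.194.

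Downstream of GSTs, enzymes that process glutathione conjugates were mixed, with 6 of 10 log2 fold changes below 0 (median -0.14). At an unadjusted p under 0.05, 3 were lower (11.3% of all genes were) and 1 was higher (9.86% of all genes). Cndp2, a dipeptidase that can split cysteinylglycine, was at 974, 1066 and 1299 CPM in WT and at 307, 387, 273 and 890.4 CPM in DKO. All DKO libraries were lower, DKO 4 least. Cndp2 had a log2 fold change of -1.26 (SE 0.38, edgeR adjusted p = 0.163), and the DESeq2 adjusted p was 0.0226, in a range over alternatives of 0.0226 to 0.494. Acy3, which deacetylates mercapturic acids, was at 2466 ± 57.6 CPM in WT and 1365 ± 666 in DKO (log2 fold change -0.85, SE 0.33), without overlap. Dpep1, a membrane dipeptidase, had a log2 fold change of -0.48 (SE 0.21). Anpep, aminopeptidase N, was higher without overlap (0.67, SE 0.20).

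The supply of donors was mixed. In the PAPS and sulfate list, 4 of 9 genes had log2 fold changes above 0 (median -0.10). At an unadjusted p under 0.05, 1 of the 9 was higher (9.86% of all genes were) and 2 were lower (11.3% of all genes). Papss2, which synthesises PAPS, was at 62.9, 122 and 51.6 CPM in WT and at 165, 174, 179.7 and 128 CPM in DKO, all DKO libraries being higher (log2 fold change 1.04, SE 0.28). The Golgi PAPS transporters Slc35b2 and Slc35b3 had log2 fold changes of -0.70 (SE 0.20) and -0.52 (SE 0.22). For Papss2 and Slc35b2, edgeR adjusted p-values were both 0.163 and DESeq2 gave 0.0227 and 0.0387, the lowest of ranges over alternatives that reached 0.494. Ugdh, which makes UDP-glucuronate, was at 231 ± 107 CPM in WT and 344 ± 90.6 in DKO, in a list of 4 genes with 2 above 0 and none at an unadjusted p under 0.05 (median 0.09).

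Glutathione synthesis and recycling had 3 of 8 genes above 0 (median -0.09). Higher at an unadjusted p under 0.05 was 1 of the 8, against 9.86% of all genes, namely Oplah, the 5-oxoprolinase (0.75, SE 0.24). The deconjugating hydrolase list, made of glucuronidase, sulfatase and sulfatase-modifying genes, had 2 of 6 above 0 and none at that threshold (median -0.03). It was not limited to enzymes that act on drug or hormone conjugates. Arsg, with the highest mean CPM of the list, was at 50 ± 15 CPM in WT and 41.8 ± 15.4 in DKO. NRF2 targets outside these families had 9 of 12 above 0 and none at that threshold (median 0.15), and Gclm, with the highest mean CPM, was at 144 ± 18.4 and 114 ± 11.8 CPM.

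Known regulators of conjugation genes are transcription factors and Keap1, the protein that restrains NRF2. Log2 fold changes were above 0 for 13 of the 13 tested of 14 listed (median 0.43), and 6 had an unadjusted p under 0.05, against 9.86% of all genes in this direction. After removal of length and GC trends, 12 of 13 were above 0. Ppara, Mafg and Arnt had log2 fold changes of 0.54 (SE 0.20), 0.51 (SE 0.19) and 0.41 (SE 0.16). For Hnf4a, which was picked out with its values known, the log2 fold change was 0.65 (SE 0.26). None of the 6 had an edgeR adjusted p under 0.163.

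**Figure D5:**
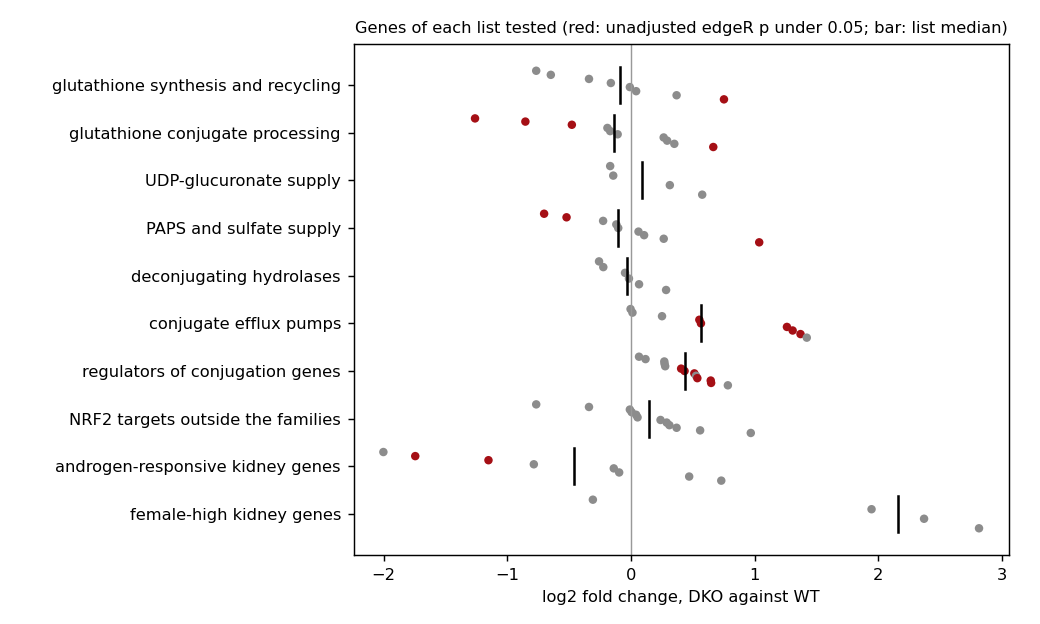
Log2 fold changes (DKO against WT, edgeR) of the tested genes of 10 lists; each point is a gene, red marks an unadjusted p under 0.05 and the black bar is the list's median. Efflux pumps (median 0.57) and regulators (0.43) lie mostly to the right of 0, and the androgen-responsive genes (-0.46) mostly to the left.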

How the data were processed

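Kidney RNA was sequenced from 3 WT and 4 DKO male mice. Per the labels' protocols, library preparation was unstranded (tagmentation). The authors deposited raw read counts per gene, and a TMM-scaled signal table (CPM-like values) used here only to choose members by symbol. The submitters' processing notes name STAR 2.5.2a, DESeq2, edgeR and limma. The notes list GRCm38 (mm10) and GRCh38 without their roles. Counter, annotation release and strandedness of counting: not given in the sources used here. Reads of overlapping or antisense genes therefore cannot be told apart. The 24 rows that name no Ensembl gene held at most 0.000697% of a library's counts and were left out.

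From the raw counts, edgeR 4.0.16 in R 4.3.3 computed TMM factors, CPM and a robust quasi-likelihood F test of DKO against WT, two-sided, on the 15394 genes kept by filterByExpr (minimum count 10, minimum total 15), with Benjamini-Hochberg adjustment. Standard errors were derived from the F statistic. Alternatives were DESeq2 1.42.0, limma-voom 3.58.1, other size factors, no filter, each library left out, the replicate number as a block, removal of length and GC trends, non-gene rows kept in library sizes, and counts summed over members that share most of their 50-base words. DESeq2 gave no adjusted p for low-count genes such as Mgst2, Ugt1a1 and Gsta1. The fits were checked on simulated counts. Total counts of 18330833 to 24259231 in genes let a count of 0 hide 3 reads, or 0.122 to 0.159 CPM, counting error only.

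Positions and exon lengths are from GENCODE M21 on GRCm38, which matched all 47 members. Named genes were members with an unadjusted p under 0.05, the 2 most abundant per length of each class, and from each list up to 4 genes at that threshold or else the most abundant. Single values of 2 genes that the rule or its counts cover are not reported here. Members and lists were chosen with earlier results of these data known. The labels do not say how the animals were bred or sampled, so p-values measure only the spread between these samples, which may be partly technical.

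The 10 pathway lists are described in the results. Marker lists of 15 cell types had these numbers of tested genes with log2 fold changes above and below 0: proximal tubule S1 and S2 6 and 4, proximal tubule S3 3 and 3, loop of Henle 1 and 4, distal convoluted tubule 3 and 1, principal cell 3 and 2, intercalated cell 0 and 4, podocyte 4 and 1, endothelium 3 and 1, urothelium 1 and 4, hepatocyte 4 and 1, adrenal cortex 1 and 0, adipocyte 2 and 3, red cell 0 and 5, T cell 1 and 3, macrophage 1 and 5.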

Additional observations from a re-analysis of the deposited data

Results flagged for a closer look

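In 52 genes examined, 3 had a DKO library whose distance from the nearest other DKO library took a large share of the group's range. Chance flags about 1 in 20 groups, so this number of flags can arise by chance. Ugt1a2 was at 216 CPM in DKO 3, with the other DKO libraries at 5.67 to 26.7 CPM. Gsta1 was at 13 CPM in DKO 3, with the others at 0.577 to 2.37 CPM. Arnt, the dimerisation partner of the aryl hydrocarbon receptor, was at 31.4 CPM in DKO 1, with the others at 40.3 to 41.3 CPM.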

How the results depend on the processing

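The low-count filter and the tool changed the calls. At an adjusted p under 0.05, edgeR called 0 genes, DESeq2 672 and edgeR without the filter 66, and leaving out 1 library gave 0 to 7 (1 without WT 2, 7 without DKO 1). Members called numbered 0 with edgeR, 2 with DESeq2, 1 without the filter and 0 with each library left out. Genes at an unadjusted p under 0.05, 3250 in all, ranged from 1582 (without WT 4) to 3796 with 1 library left out, and were 2075 without DKO 2. Members higher at that threshold, 6, ranged from 3 to 11 (6.82% to 25% of members, against 5.63% to 12.5% of all genes) and were 3 with limma-voom. Members lower, 2, ranged from 1 to 2 and were 4 without the filter and 1 with length and GC trends removed. Members without overlap, 6, ranged from 6 to 15 (14.3% to 35.7%), and for all genes the share was 17.4% with all libraries and 19.6% to 32.7% with 1 left out. The median log2 fold change of members, 0.21, ranged from 0.06 to 0.26. List genes at an unadjusted p under 0.05, 21, ranged from 14 to 30. With all libraries, 21.1% of all genes passed that threshold.

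Same-numbered WT and DKO libraries had correlations of -0.133, 0.165 and 0.136 between their deviations from the group means for numbers 1, 2 and 4, so the numbers were not taken to pair the animals. With the replicate number as a block, 5 members were higher and 1 lower at an unadjusted p under 0.05, and 0 were called. The DKO library whose number has no WT library is alone in its block and adds nothing to the difference between groups. It is the library with the highest Ugt1a2, Ugt1a1 and Gsta1. Values with the block, here and below, therefore rest on the other libraries and are not independent of leaving that library out.

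Of the members named by the rule, these reversed, and their log2 fold changes with all libraries were between -0.15 and 0.15. Gsto1 was at -0.033 with the block and between -0.026 and 0.20 with libraries left out, Gstt2 at -0.027 with length and GC trends removed and between -0.10 and 0.20 with libraries left out. Removing these trends also reversed Gstm5 (0.14) and Gstp1 (0.019). Mgst1 was at -0.019 with limma-voom, -0.16 with the block and between -0.14 and 0.21 with libraries left out, and Sult1d1 at -0.011, -0.095 and between -0.23 and 0.28. With libraries left out, Ugt3a2 ranged from -0.085 to 0.49, Sult1c2 from -0.028 to 0.27 and Gsto2 from -0.23 to 0.0011. The cause of these changes was not tested. Values for single genes kept their direction and side of the threshold in 722 settings, passed the adjusted threshold in 10 and reversed in 25. With 3 and 4 animals, small differences in members of low counts could not be told from no difference.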
